A study of Mus musculus with 2 samples.

Results

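The 10 genes described here encode the PEA3 transcription factors *Etv1*, *Etv4* and *Etv5* and a set of inhibitors that hold back the ERK pathway, namely the Sprouty genes *Spry1*, *Spry2* and *Spry4*, the Spred genes *Spred1* and *Spred2*, and the phosphatase genes *Dusp4* and *Dusp6*. They are 10 of the 22156 genes in the deposited table and were found in it by their symbols. They were chosen by family and role, with the counts of these same libraries already known, so their differences between the libraries are given as descriptions without a test. Of the 10 genes, 9 had at least 10 counts over both libraries, and *Spry4* did not.

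RNA sequencing of primary chondrocytes, the cells of cartilage, gave 1 control library and 1 *Myl3*-KO library. The cells came from cartilage of newborn mice, given as rib in the labels and as rib and articular cartilage in the study's methods, and were kept as a monolayer in culture without further treatment, in a study that asked by which pathways loss of the myosin light chain MYL3 acts on chondrocyte senescence. In *Myl3*-KO mice (*Col2a1*-Cre with *Myl3* flox/flox) the Cre recombinase is driven by the *Col2a1* promoter, so cells that never used this promoter keep *Myl3*. The study's methods describe controls as *Myl3* flox/flox littermates without Cre, on a C57BL/6 J background, whereas the labels call the control WT. The number of animals behind each library was not given in the sources used here. With 1 library per genotype, the genotype and any other difference between the cultures cannot be told apart, and no difference below has a replicate check.

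Growth factor receptors such as those for FGF activate RAS, which passes the signal through the kinases RAF, MEK and ERK to the nucleus. PEA3 factors are ETS-domain proteins whose genes are switched on when ERK is active, and which carry part of its transcriptional response. Sprouty and Spred proteins act upstream in the cascade, at the level of RAS and RAF, while DUSP4 and DUSP6 remove phosphate from ERK itself, and genes of these families are induced by ERK as negative feedback. In the growth plate, FGF signaling through ERK restrains the proliferation and maturation of chondrocytes.

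Expected counts summed to 17612435 for control and 13477977 for *Myl3*-KO cells. The floor was set at 3 counts, or 0.170 CPM (counts scaled to a common library total) for control and 0.223 CPM for *Myl3*-KO cells. *Myl3* had 0 counts in both libraries, so it could not check the labels. Of 10 chondrocyte markers, 7 were at or under the floor in both libraries, with *Acan*, *Matn1*, *Matn3* and *Hapln1* at 0. *Col2a1*, whose promoter drives the Cre, was counted 30 and 27 times. The cartilage transcription factor gene *Sox9* was counted 866 and 480 times (log2 ratio of *Myl3*-KO over control, scaled by library total, -0.47). The summed level of the list was 57.8 CPM in the control and 45.2 in *Myl3*-KO. The summed level of 7 fibroblast markers was 15446 and 17525 CPM. Most of it came from *Col1a2*, with 211652 of 272034 counts in the control and 189213 of 236200 in *Myl3*-KO. *Dcn*, a matrix proteoglycan, went from 631 to 155 counts (log2 ratio -1.64), and *Thy1* was at 0 in both libraries.

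In the control library the PEA3 factors and both phosphatases were barely detected, while the Spred genes were the most abundant members. Levels between genes are compared in FPKM, which scales counts by transcript length and library size, with exact 95% Poisson intervals of the counts carried to this scale. These intervals, like all intervals below, cover counting error only. *Spred1* stood at 6.26 FPKM (5.79 to 6.76), followed by *Spred2* at 3.67 (3.24 to 4.14), *Spry1* at 2.19 (1.77 to 2.67) and *Spry2* at 1.06 (0.754 to 1.45). No 2 of these 4 intervals overlapped. The other members lay between 0.14 FPKM for *Etv5* and 0.20 FPKM for *Etv1*, with overlapping intervals, and *Spry4* was listed at 0.

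In *Myl3*-KO the 4 leading genes kept their order. *Spred1* had 6.38 FPKM (5.84 to 6.95), *Spred2* had 4.30 (3.76 to 4.89), *Spry1* had 1.92 (1.49 to 2.44) and *Spry2* had 1.07 (0.722 to 1.53), of which the intervals of *Spry1* and *Spry2* overlapped. *Etv4* and *Etv5* came next at 0.62 FPKM each, with intervals of 0.379 to 0.958 and 0.427 to 0.871 that overlapped that of *Spry2*. *Dusp6* stood at 0.45 FPKM (0.262 to 0.720), *Etv1* at 0.24, and *Spry4* and *Dusp4* at 0.05 each. *Etv5*, whose FPKM in the control exceeded that of 2.20% of the genes with at least 10 counts, exceeded 9.47% of them in *Myl3*-KO.

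**Figure D1:**
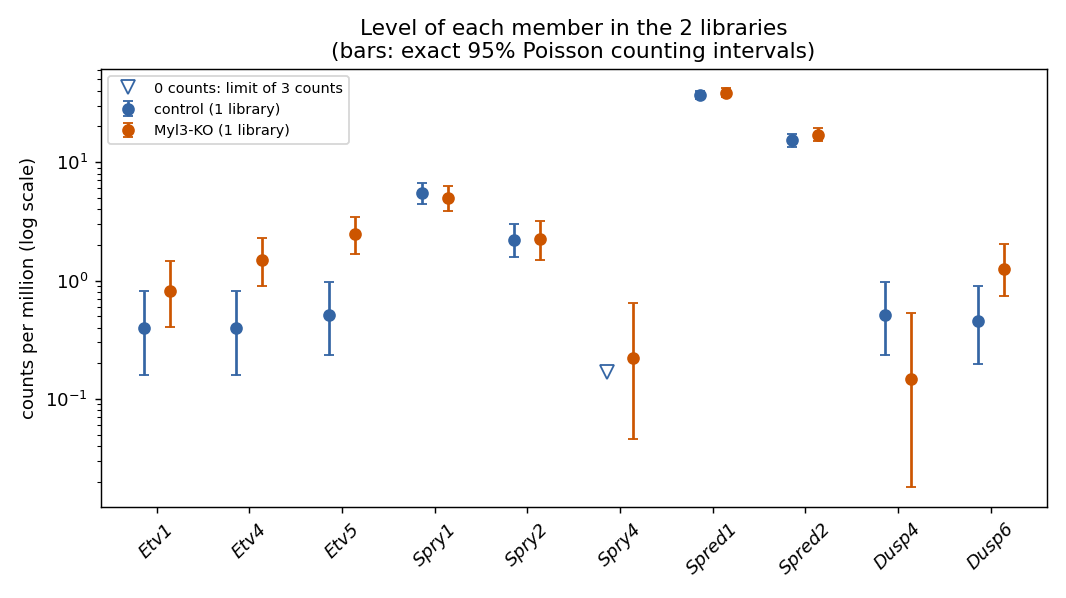
Level of each member in the control (blue) and *Myl3*-KO (orange) library in CPM on a log axis, with 1 point per library and exact 95% Poisson counting intervals as bars. The triangle marks the limit of 3 counts for *Spry4*, which had 0 counts in the control. The orange points of *Etv1*, *Etv4*, *Etv5* and *Dusp6* lie above the blue ones, and the points of both Spred genes and of *Spry1* and *Spry2* lie side by side.

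*Etv5* differed most between the libraries. This gene (ENSMUSG00000013089, chromosome 16 from 22381309 to 22439719, minus strand, GRCm38) encodes a PEA3 factor with roles in branching organs and germ cell maintenance. It was counted 9 times in control cells and 33 times in *Myl3*-KO cells, which is 0.511 against 2.45 CPM. *Myl3*-KO was thus 4.79-fold higher (log2 ratio 2.26, 95% counting interval 1.17 to 3.51), and 20 of the 12431 genes with at least 10 counts had a ratio at least as high, *Etv5* itself included. This rank is a description, since *Etv5* was chosen with its ratio known and large ratios were common among genes with so few counts.

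*Etv4* (ENSMUSG00000017724, chromosome 11 from 101769742 to 101785371), which encodes the founding PEA3 protein, was counted 7 times in control cells and 20 times in *Myl3*-KO cells. Its log2 ratio was 1.90 (95% interval 0.60 to 3.39), and the *Myl3*-KO library was again the higher. *Etv1* (ENSMUSG00000004151, chromosome 12 from 38779380 to 38870484), which encodes the remaining PEA3 protein, was counted 7 and 11 times. Its log2 ratio of 1.04 had an interval of -0.46 to 2.64 that spans 0, so a difference in *Etv1* was not detectable at this depth.

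The value of *Etv1* also depended on the unit. Its FPKM went from 0.20 to 0.24, a log2 ratio of 0.26, because the transcript length implied by count and FPKM was 1.71 times longer in *Myl3*-KO (3331 to 3473 bases, allowing for rounding) than in the control (1939 to 2038 bases). The annotation lists 13 transcripts of *Etv1* from 544 to 6576 bases. For the 8 other members with a value in both libraries this length ratio lay between 0.957 and 1.10, and over 10562 genes with at least 1 FPKM in both libraries 0.360% had a ratio over 1.5. With 1 count added to each library the log2 ratio of *Etv1* was 0.97, also under the 2-fold limit.

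Summed over the 3 PEA3 genes, 23 counts in the control stood against 64 in *Myl3*-KO, a 3.64-fold ratio (log2 1.86, 95% interval 1.15 to 2.62). Without *Etv5* the sums were 14 and 31 (log2 ratio 1.53, interval 0.58 to 2.56). The 3 genes were not separated from each other. The ratio of *Etv5* was 1.28 times that of *Etv4*, with an exact 95% interval of 0.346 to 4.58, and the ratio of *Etv4* was 1.79 times that of *Etv1*, with one of 0.416 to 7.87. These intervals are wide and leave room for a several-fold difference among the PEA3 genes.

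Promoter windows from 250 bases before to 50 bases after a RefSeq start (GRCm38.p6) were available for 7 of the 10 members, with 9 windows in all since *Etv1* and *Etv5* have 2 starts each. They were searched on both strands for the sites TGAATGAA and TGAATGGA of the repressor Capicua (CIC), which holds PEA3 genes down until ERK signaling removes it, for the ETS sites CCGGAA and ACCGGAAG, the second of which contains the first, for the AP-1 site TGANTCA and for the cyclic AMP response element TGACGTCA. Only CCGGAA was found, in 1 window, that of *Spry2*, 33 bases after the start. Among all 32851 windows CCGGAA was present in 14.9%, ACCGGAAG in 2.30%, TGANTCA in 7.81%, TGACGTCA in 1.79%, TGAATGAA in 1.30% and TGAATGGA in 1.21%.

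A further form of the Capicua site, TGAATGGG, was searched after the windows had been read, together with TGAATGAG. TGAATGGG was present in 1.08% of all windows and TGAATGAG in 1.20%. Among the members, TGAATGGG was found in 1 window, that of the downstream start of *Etv5*, which held 3 copies beginning 242, 198 and 131 bases before the start, the last on the opposite strand. Of the 32851 windows, 1 held 3 or more copies, and it was this one. As this form was added after the windows had been read, its rarity elsewhere is a description and no test. The copies are described as letters in a window, with no measurement of binding. The 250 bases before this start are shown because they hold the copies (in capitals), and lie within *Etv5* in an intron of the GENCODE annotation at chr16:22438369-22438618, minus strand.

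Etv5, downstream start: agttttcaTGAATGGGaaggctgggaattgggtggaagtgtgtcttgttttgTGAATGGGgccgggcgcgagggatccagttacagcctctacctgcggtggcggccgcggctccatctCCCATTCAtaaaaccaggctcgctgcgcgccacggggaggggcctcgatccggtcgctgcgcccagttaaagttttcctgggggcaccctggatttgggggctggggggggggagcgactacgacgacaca

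For comparison, the 250 bases before the upstream RefSeq start of *Etv1* (chr12:38779832-38780081, plus strand, intronic in GENCODE) and before that of *Dusp6* (chr10:99262981-99263230, plus strand, upstream of the gene) are shown. They hold none of the sites searched and are therefore in lower case throughout.

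Etv1: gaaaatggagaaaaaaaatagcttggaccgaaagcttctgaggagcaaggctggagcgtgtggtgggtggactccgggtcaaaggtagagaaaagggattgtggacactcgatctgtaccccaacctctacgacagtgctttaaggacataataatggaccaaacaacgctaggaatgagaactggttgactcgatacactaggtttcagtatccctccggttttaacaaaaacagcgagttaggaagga
Dusp6: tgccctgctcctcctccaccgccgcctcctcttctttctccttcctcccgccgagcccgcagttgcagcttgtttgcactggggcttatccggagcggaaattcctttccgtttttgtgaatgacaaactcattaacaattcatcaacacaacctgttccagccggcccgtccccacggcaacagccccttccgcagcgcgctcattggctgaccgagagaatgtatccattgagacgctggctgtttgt

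Of the 9 member windows, 7 had a GC content above the median of all windows (52.7%), with a range of 44.0% to 74.0%, and both windows of *Etv1* (48.7% and 44.0%) lay below it. The number of CpG dinucleotides was above the median of 7 in 8 of the 9 windows, and reached 40 in *Spred1*.

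The phosphatase genes lay on opposite sides of equal levels. *Dusp6* (ENSMUSG00000019960, chromosome 10 from 99263231 to 99267489) encodes a cytoplasmic phosphatase selective for ERK. It was counted 8 times in control cells and 17 times in *Myl3*-KO cells, a 2.78-fold ratio (log2 1.47, 95% interval 0.18 to 2.89). *Dusp4* (ENSMUSG00000031530, chromosome 8 from 34807297 to 34819894), which encodes a nuclear phosphatase of ERK and related kinases, was counted 9 times in control cells and 2 times in *Myl3*-KO cells. The log2 ratio of these counts was -1.78 with an interval of -5.03 to 0.49, and it was -1.20 with the lower count raised to the floor. As the interval spans 0, a difference in *Dusp4* was not detectable at this depth. Within the libraries, which removes any scaling, the ratio of *Dusp6* was 8.92 times that of *Dusp4*, with an exact 95% interval of 1.40 to 104. Since both genes were chosen with these few counts known, this value is a description and no test that the phosphatase genes diverge.

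**Figure D2:**
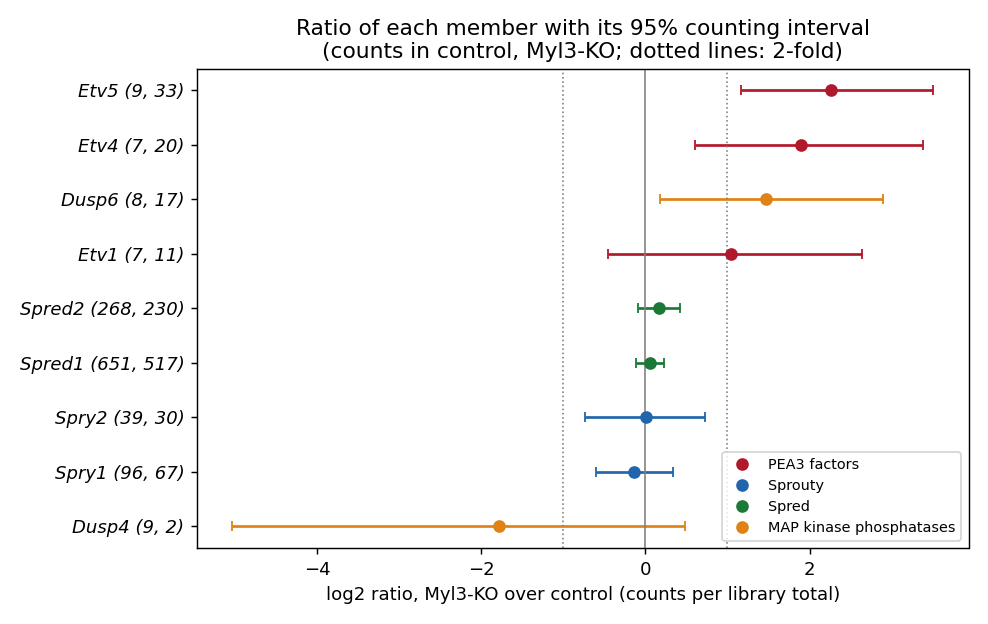
Log2 ratio of *Myl3*-KO over control for the 9 members with counts in both libraries, with 95% Clopper-Pearson counting intervals as bars, counts in parentheses (control, *Myl3*-KO) and colors for the families. *Dusp4* is drawn at the ratio of its counts as they stand, -1.78. The intervals of *Etv5*, *Etv4* and *Dusp6* lie above 0, and the other 6 span it.

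The Sprouty genes, whose proteins bind adaptors and RAF, showed no difference beyond counting error. *Spry1* (ENSMUSG00000037211, chromosome 3 from 37639947 to 37644598) was counted 96 times in control cells and 67 times in *Myl3*-KO cells (log2 ratio -0.13, 95% interval -0.61 to 0.33). *Spry2* (ENSMUSG00000022114, chromosome 14 from 105891947 to 105896819) was counted 39 and 30 times (log2 ratio 0.01, interval -0.73 to 0.73), and its direction turned under other scalings (-0.01 with TMM factors). *Spry4* (ENSMUSG00000024427, chromosome 18 from 38586247 to 38601415), counted 0 times in control cells (95% Poisson upper limit 0.209 CPM) and 3 times in *Myl3*-KO cells, was at or under the floor in both libraries, and no ratio is given. Their summed counts were 135 and 100, a log2 ratio of -0.05 (interval -0.43 to 0.34).

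The Spred genes were the most precisely measured members. Their proteins bring the RAS GTPase activating protein neurofibromin to the membrane. *Spred1* (ENSMUSG00000027351, chromosome 2 from 117121374 to 117182279) was counted 651 times in control cells and 517 times in *Myl3*-KO cells (log2 ratio 0.05, 95% interval -0.12 to 0.22). *Spred2* (ENSMUSG00000045671, chromosome 11 from 19924375 to 20024026) was counted 268 and 230 times (log2 ratio 0.17, interval -0.10 to 0.42). Both intervals span 0 and lie inside 2-fold in either direction. The related *Spred3*, which is no member, had 56 and 62 counts (log2 ratio 0.53, interval -0.01 to 1.08).

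Set against each other within the libraries, the PEA3 sum over the Sprouty and Spred sum was 3.46 times higher in *Myl3*-KO (exact 95% interval 2.10 to 5.89), a value that no scaling of the libraries can change. The comparison sets 23 and 64 counts of the PEA3 genes against 1054 and 847 of the 5 inhibitor genes. Both groups were chosen with these counts known, so the interval covers counting error only and is no test of a difference between them. As in any bulk sample, more cells that express a gene and more RNA per cell cannot be told apart.

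Of the 9 members with at least 10 counts, 4 were at least 2-fold higher in *Myl3*-KO (*Etv1*, *Etv4*, *Etv5* and *Dusp6*), where 2.16% of all 12431 such genes were. At least 2-fold lower was 1 member (*Dusp4*), against 1.19% of all genes. All 5 had under 50 counts over both libraries, where large ratios were common. Of the 1308 genes with 10 to under 50 counts, 15.4% were at least 2-fold higher and 9.02% at least 2-fold lower, against 0.602% and 0.270% of the 11123 genes with 50 or more counts. The counting interval lay above 0 for 3 members (*Etv4*, *Etv5* and *Dusp6*), as for 22.2% of all genes and 8.33% of those with 10 to under 50 counts, and below 0 for 0 members, against 20.1% of all genes. Since the members were chosen with these ratios known, nothing is read from the counts of members. The median log2 ratio of the 9 members was 0.17, that of *Spred2*, against 0.02 over all genes.

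**Figure D3:**
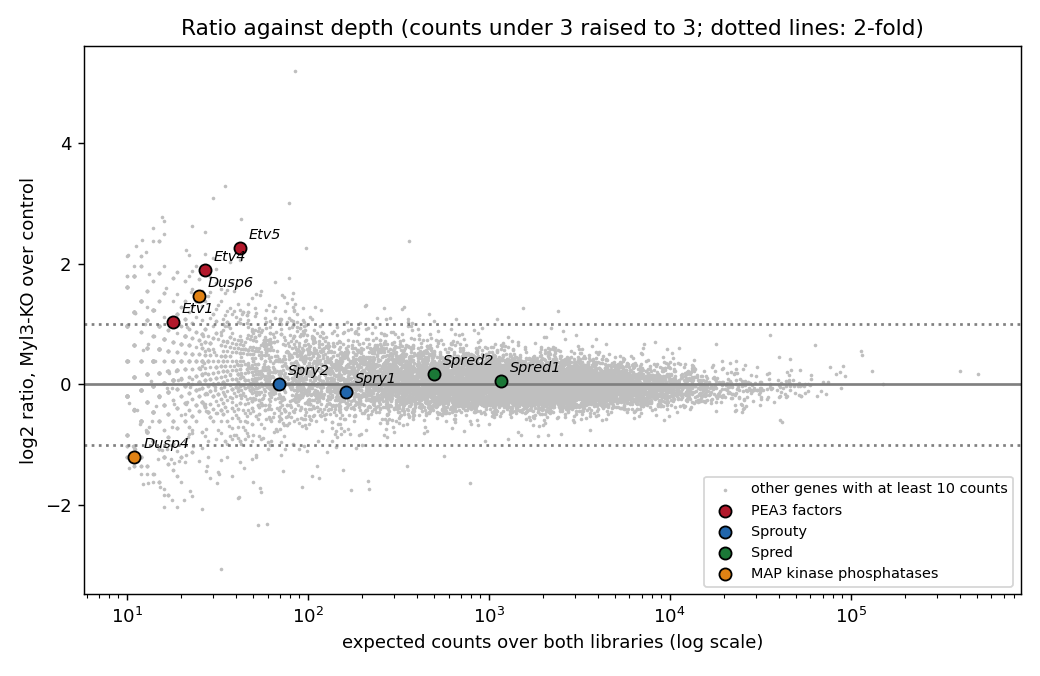
Log2 ratio of *Myl3*-KO over control (vertical axis, counts under 3 raised to 3) against the summed expected counts (horizontal log axis) for the 12431 genes of the background, with 1 point per gene and the 9 counted members in color. The 5 members beyond the dotted 2-fold lines lie in the wide left part of the cloud, and the 4 others lie close to 0.

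The genes of the kinase cascade and its adaptors lay within 2-fold between the libraries. Of 11 genes for RAS, RAF, MEK and ERK, 0 passed 2-fold and the median log2 ratio was 0.06. Their log2 ratios ran from -0.23 to 0.23. *Mapk3*, which encodes the kinase ERK1, had a log2 ratio of 0.18 (1919 and 1664 counts), and *Nras*, which encodes a RAS protein, had one of 0.07 (2004 and 1609 counts). Of 11 adaptors, exchange factors and GTPase activating proteins, 0 passed 2-fold, with a median of 0.11. *Ptpn11*, a phosphatase needed for RAS activation, had a log2 ratio of -0.03, the adaptor gene *Grb2* one of 0.07, and the adaptor gene *Shc1* one of 0.42 (95% interval 0.33 to 0.52).

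Of 22 FGF genes, which include intracellular homologs beside the ligands, 12 had 0 counts in both libraries and 6 had at least 10 counts. Of these 6 genes, 0 were 2-fold higher and 1 was 2-fold lower. *Fgf7*, a ligand known for acting from mesenchyme on epithelium, was by far the best counted, at 301 counts for control and 411 for *Myl3*-KO cells (log2 ratio 0.84, 95% interval 0.62 to 1.05). *Fgf2*, an activator of several FGF receptors, had 15.85 and 19.94 counts and an interval of -0.31 to 1.75, and *Fgf22* had 14 and 11 counts (log2 ratio 0.04). *Fgf14*, an intracellular FGF homolog, was the lower gene, with 10 and 2 counts and an interval of -5.17 to 0.29. Of the 4 counted receptor genes, 0 passed 2-fold. *Fgfr1* had a log2 ratio of 0.41 (interval 0.30 to 0.51), *Fgfr2* one of -0.29 (-0.44 to -0.14), and the decoy receptor gene *Fgfrl1* one of 0.09.

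A further list held other Spred and MAP kinase phosphatase genes and other inhibitors of the pathway. Of its 13 genes with at least 10 counts, 0 passed 2-fold. Their median log2 ratio was 0.16, with values from -0.36 (the MAP kinase phosphatase gene *Dusp8*) to 0.53 (*Spred3*). *Pebp1*, which encodes a RAF inhibitor, had a log2 ratio of -0.17, *Pea15a*, whose protein holds ERK in the cytoplasm, one of 0.13, and *Lrig1*, an inhibitor of receptor kinases, one of 0.42 (95% interval 0.28 to 0.56).

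Regulators that act on PEA3 genes or proteins were well counted. *Cic*, which encodes Capicua, was counted 2321 times in control cells and 2063 times in *Myl3*-KO cells (log2 ratio 0.22, 95% interval 0.13 to 0.30). Its partner gene *Atxn1l* had one of -0.02, and *Rfwd2*, which encodes the ubiquitin ligase COP1 that degrades PEA3 proteins, one of -0.10. None of the 5 genes of this list passed 2-fold. Among 13 counted ETS genes outside the PEA3 group, *Fli1* passed 2-fold with the same counts as *Dusp6*, 8 and 17, while *Ets2* (0.18), *Elf2* (0.00) and *Elk3* (0.17) had log2 ratios near 0.

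Among 13 counted genes used elsewhere as readouts of ERK activity, 2 passed 2-fold, both higher in *Myl3*-KO. The immediate early gene *Egr1* was counted 108 times in control cells and 177 times in *Myl3*-KO cells (log2 ratio 1.10, 95% interval 0.75 to 1.46). *Ccnd1*, which encodes cyclin D1, had 136.14 and 221.72 counts (log2 ratio 1.09, interval 0.78 to 1.41). *Emp1* had a log2 ratio of 0.00, *Ier3* one of -0.23 and *Myc* one of -0.31 (interval -0.38 to -0.24). Of the 13 genes, 10 had a log2 ratio above 0 and 3 below it, and the median was 0.16. The whole interval lay above 0 for 4 and below 0 for 2. Of all 12431 genes with at least 10 counts, 6553 had a log2 ratio above 0 and 5878 below it, and 2.16% were 2-fold higher. The whole interval lay above 0 for 22.2% of all these genes and below 0 for 20.1%.

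**Figure D4:**
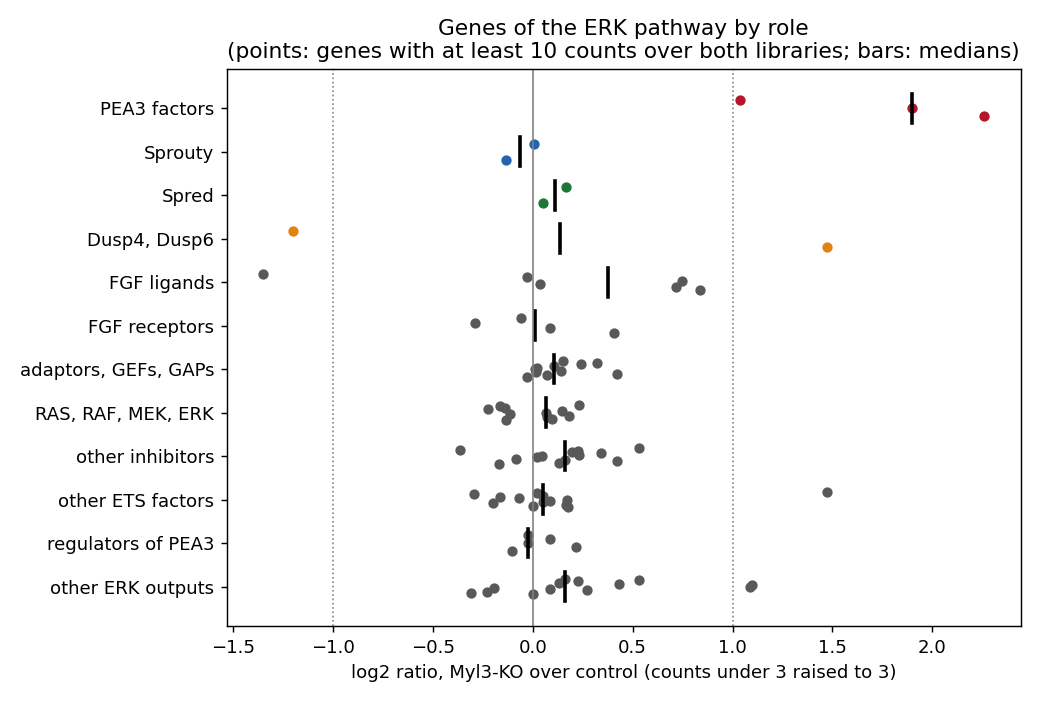
Log2 ratio of *Myl3*-KO over control for the listed genes counted 10 times or more, grouped by role in the pathway, with 1 point per gene and a black bar at the median of each list. The PEA3 factors lie beyond the dotted 2-fold line, and beside them and *Dusp6* only *Fli1*, *Egr1* and *Ccnd1* do so on the higher side.

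In the MAPK signaling pathway of the deposited table, looked up after these values were seen, 191 genes had at least 10 counts. Of these, 3 were 2-fold higher (*Dusp6*, *Mapt* and *Pla2g4b*) and 2 were 2-fold lower (*Dusp4* and *Fgf14*), and the median was 0.02, against 0.02 over all genes.

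Markers of other cell types were looked at beside the PEA3 genes. Of 8 muscle markers, 1 had at least 10 counts, the cadherin gene *Cdh15*, counted 73 times in control and 290 times in *Myl3*-KO cells, and it set the summed level of 4.54 and 21.6 CPM, while *Pax7*, *Myf5*, *Myod1*, *Myog* and *Des* were at 0 in both libraries. The summed levels of 4 Schwann cell markers were 3.35 and 5.34 CPM, with *Sox10* at 0 in both libraries. The summed levels of 5 endothelial markers were 0.397 and 0.890 CPM, which rest on only 7 and 12 counts, with *Cdh5* and *Tie1* at 0 in both libraries. Those of 5 immune markers were 2.22 and 2.45 CPM, with *Adgre1* at 0. Their part in the difference of the PEA3 genes was not tested.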

How the data were processed

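RNA sequencing libraries of primary chondrocytes, 1 control and 1 *Myl3*-KO, were read from the deposited table of 22156 genes. Its values are expected counts, deposited by the authors without normalization, and FPKM, which the authors scaled by transcript length and library and rounded to 2 decimals. The aligner, the counting tool and its strand setting are not given in the sources used here, and the submitters' processing notes name the builds GRCm38 and mm10. The labels name a SMARTER library kit, whereas the study's methods describe enrichment on oligo beads and random priming. The control columns are headed NC and were read as control because the others are headed KO. All 10 members had whole counts.

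Counts were divided by the library total. For ratios of *Myl3*-KO to control on the log2 scale, any count below 3 was set to 3, and counts were rounded for the 95% Clopper-Pearson intervals of ratios and the Poisson intervals of levels. The background was 12431 genes counted 10 times or more in the libraries together, and 9725 were left out. With 1 library per genotype no test between genotypes was made, and no p-value is given. Ratios of ratios are conditional odds ratios with exact intervals. A gene was called higher or lower past 2-fold. The ratio and its interval were tested on simulated Poisson counts with differences planted only in well counted genes. Ratios of changed genes at counts as low as those of the PEA3 genes were therefore not checked.

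The members and lists were chosen with earlier results of these data known. Named genes are the members, *Myl3*, listed genes past 2-fold, and up to 3 further genes of each list with the most counts. Also named, after their values were seen, are *Spred3*, *Dusp8*, *Mapk3*, *Mapt* and *Pla2g4b*, and cell type markers by their role. Some genes that this rule names are not reported here. Of the listed genes, *Spry3* and *Cop1* were not matched by these symbols, and *Cop1* was counted as *Rfwd2*. Coordinates and transcripts are from GENCODE M21 (GRCm38), which held 21881 of the identifiers, and promoter windows from RefSeq (GRCm38.p6). *Spry1* and *Spry4* overlap noncoding genes that the table does not count, and the other members overlap no annotated gene.

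Alternatives were TMM factors (edgeR 4.0.16), DESeq2 1.42.0 size factors, 1 count added, the FPKM ratio, no floor, a 1.5-fold limit, and other filters on low counts. The software was R 4.3.3 and Python 3.11.15, with scipy 1.17.1 for intervals, matplotlib 3.10.9 for plots, and pandas 2.3.3 and numpy 2.4.6.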

Additional observations from a re-analysis of the deposited data

How the results depend on the processing

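The 2-fold calls of the members rest on genes with fewer than 10 counts in the control, and for *Dusp4* in both libraries. With at least 10 counts asked of each library, 4 members were left (*Spred1*, *Spred2*, *Spry1* and *Spry2*). Of them 0 were 2-fold higher and 0 were 2-fold lower, since that filter removes the 5 members called. Among all genes passing that filter, 0.924% were higher and 0.265% lower. With 1 count added to each library or with the FPKM ratio, 3 members were 2-fold higher in place of 4, as *Etv1* fell under the limit. The share of all genes that were 2-fold higher was 2.04% and 2.40% in these settings. Under TMM or DESeq2 size factors, without a filter, and with a limit of 1.5-fold, 4 members were higher and 1 was lower. In the same order, 2.14%, 2.09%, 2.60% and 6.17% of all genes were higher. The shares of all genes that were lower were 1.25%, 1.25%, 1.03% and 2.90%. The log2 ratio of *Etv5* lay between 2.15 and 2.26 over all alternatives, that of *Etv4* between 1.78 and 1.90, that of *Etv1* between 0.26 and 1.04, that of *Dusp6* between 1.39 and 1.47, and that of *Dusp4* between -1.93 and -1.20. The ratio of *Spry2* was 0.01 with library totals and -0.01 with TMM factors, so its direction depends on the scaling. The median of the members went from 0.03 with at least 10 counts in each library to 0.28 with no filter, where *Spry4* enters at the floor. An alternative added after the data were seen, with the counts of *Dusp4* as they stand, left the median at 0.17. Ordered by counts instead of FPKM, the 4 leading members were the same in the control, but in *Myl3*-KO *Etv5* with 33 counts stood ahead of *Spry2* with 30. No paired analysis was possible because each group has 1 library. Depth limits these values, since *Etv1*, *Etv4*, *Etv5*, *Dusp4*, *Dusp6* and *Spry4* had under 10 counts in the control.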
